A study of Mus musculus with 10 samples.

Results

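Here 10 genes of the myeloid C-type lectin receptor family were followed in bulk RNA sequencing of nonclassical monocytes, the monocyte subset that patrols the vessel wall. The set was a fixed list of 10 gene symbols (Clec4a1, Clec4a2, Clec4a3, Clec4d, Clec4e, Clec4n, Clec5a, Clec7a, Clec9a and Clec12a), and each symbol matched 1 of the 52636 Ensembl genes in the count table. The cells were sorted from the bone marrow of untreated mice, at a purity the labels put at 98% and with 5000 to 10000 cells collected, giving 5 libraries of genotype LAIR1-/- (LAIR1KO) and 5 of genotype LAIR1+/+ (WT). The labels used here do not state the strain, age or sex of the mice, the design of the knockout allele or the markers of the sort. They do not say that the libraries came from different animals either, so each p-value rests on a spread that may be technical. LAIR1 is an inhibitory collagen receptor of leukocytes, and the comparison asks which transcripts of these monocytes differ when it is missing.

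The libraries held 12106209 to 15356924 counts each. Lair1 averaged 0.226 ± 0.276 CPM (read counts relative to library size, with library sizes scaled by the TMM method) in LAIR1KO and 374 ± 27.7 CPM in WT (SD, n = 5 each), so the libraries matched their genotype labels. All 12 marker genes of nonclassical monocytes were abundant enough to test, and by edgeR 0 of them passed the threshold, an adjusted p under 0.05, in either direction. The same held by DESeq2 and by limma voom. At an unadjusted p under 0.05, a threshold whose share over all genes is not given, 4 were lower by edgeR. By each of the other tools 6 were lower, and 0 were higher by any tool. The most abundant, Adgre4, averaged 2374 CPM in LAIR1KO and 2661 CPM in WT, and Nr4a1, the transcription factor these cells depend on, 1158 CPM in LAIR1KO and 1451 CPM in WT (adjusted p = 0.177). Without LAIR1KO replicate 3 both were lower past the threshold (edgeR adjusted p = 0.0495 for Adgre4 and 0.0228 for Nr4a1). Of 9 myeloid progenitor markers 8 were higher in LAIR1KO, led by Mpo, which encodes myeloperoxidase (3401 CPM in LAIR1KO and 518 CPM in WT). Of 10 tested resident macrophage markers 8 were lower, led by the complement chain gene C1qa. Because these are bulk libraries, fewer cells of a type and less RNA per cell cannot be told apart.

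C-type lectin receptors are membrane proteins of phagocytes and dendritic cells that recognise sugars, lipids and debris of microbes and dying cells through an extracellular lectin-like domain. Some carry an inhibitory tyrosine motif (ITIM) that recruits the phosphatases SHP-1 and SHP-2, some carry a single activating tyrosine motif (hemITAM) that engages the kinase SYK, and others borrow the activating motif of the adaptors FcRγ or DAP12. SYK then signals through the CARD9, BCL10 and MALT1 complex to NF-κB. In the mouse most of the genes lie in tandem arrays of the natural killer gene complex on chromosome 6.

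The windows before the RefSeq starts of 4 of the genes are shown. They belong to the 2 genes whose transcripts changed, Clec4a2 and Clec9a, and to 2 abundant neighbours on the same arrays, Clec4a1 and Clec12a. They are the 250 bases upstream of the RefSeq start on GRCm38.p6, written 5′ to 3′ on the strand of the gene, and RefSeq held windows for 9 of the 10 genes (all but Clec4n). Clec4a2 is chr6:123122440-123122689, Clec9a is chr6:129408612-129408861, Clec4a1 is chr6:122921598-122921847 and Clec12a is chr6:129349994-129350243, all on the plus strand. GENCODE starts Clec4a2 and Clec12a further upstream, so their windows lie inside the genes as GENCODE draws them. Which start these cells use was not tested. Capitals mark matches to a PU.1 core (GAGGAAG), an interferon response element (GAAA and GAAA with any 2 bases between) or a C/EBP site (TTGCNNAA), searched on both strands, and the marked matches do not overlap one another.
Clec4a2: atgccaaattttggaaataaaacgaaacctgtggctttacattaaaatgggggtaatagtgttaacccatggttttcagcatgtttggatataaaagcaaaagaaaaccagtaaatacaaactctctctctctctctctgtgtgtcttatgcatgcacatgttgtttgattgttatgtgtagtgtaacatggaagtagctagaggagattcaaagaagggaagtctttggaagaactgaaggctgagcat
Clec9a: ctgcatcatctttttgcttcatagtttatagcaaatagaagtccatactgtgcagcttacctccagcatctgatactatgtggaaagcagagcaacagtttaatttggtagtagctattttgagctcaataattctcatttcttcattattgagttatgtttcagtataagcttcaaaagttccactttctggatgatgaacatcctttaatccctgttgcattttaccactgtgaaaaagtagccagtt
Clec4a1: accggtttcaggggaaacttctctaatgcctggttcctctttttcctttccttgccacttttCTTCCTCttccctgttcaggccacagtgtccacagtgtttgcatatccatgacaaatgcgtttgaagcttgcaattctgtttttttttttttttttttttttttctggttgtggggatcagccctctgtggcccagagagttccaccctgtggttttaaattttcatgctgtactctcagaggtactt
Clec12a: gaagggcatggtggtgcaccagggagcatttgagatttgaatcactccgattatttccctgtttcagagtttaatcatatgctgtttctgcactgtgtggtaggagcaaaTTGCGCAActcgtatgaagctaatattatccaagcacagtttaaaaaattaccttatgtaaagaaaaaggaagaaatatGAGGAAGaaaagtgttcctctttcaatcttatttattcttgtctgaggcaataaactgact
The windows of Clec4a2 and Clec9a held no match to any of the 3 motifs. Neither did those of Clec4a3 and Clec7a, 2 abundant neighbours that did not pass and are not shown. Those of Clec4a1 and Clec12a each held 1 PU.1 core, and that of Clec12a also held 1 C/EBP site. Over the 9 genes, which had 11 windows, 4 had a PU.1 core, 2 a C/EBP site and 0 an interferon response element. Over all 32851 windows of this length the shares were 10.6%, 9.56% and 2.98%, counted per window and not per gene. A match is a string of letters and does not stand for a bound site.

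All 10 genes passed the filter on low counts and entered the test. By edgeR's quasi-likelihood test, Clec4a2 and Clec9a were lower in LAIR1KO and 0 of the 10 were higher. Over all 13469 genes tested, 1.68% were lower and 5.11% higher at the same threshold (6.79% in all). At an unadjusted p under 0.05, 5 members were lower and 0 higher. The 1.68% does not apply to this looser threshold, and the share of all genes under it is not given. At the adjusted threshold DESeq2 called 3 members lower and 0 higher, with 513 of all 13469 genes lower and 1010 higher. By limma voom 2 members were lower and 0 higher, with 226 of all genes lower and 668 higher. The fold change was below 0 for 8 of the 10, where 50.3% of all tested genes were below 0, and the median log2 fold change was -0.36, where that of all tested genes was -0.0018. The nonclassical monocyte markers lay on the same side, with 12 of 12 below 0 and a median of -0.25. In 2 members, Clec4a2 and Clec9a, every LAIR1KO library was below every WT library, a separation found in that direction in 2.06% of all genes, and in 0 members the reverse, found in 5.61%.

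**Figure D1:**
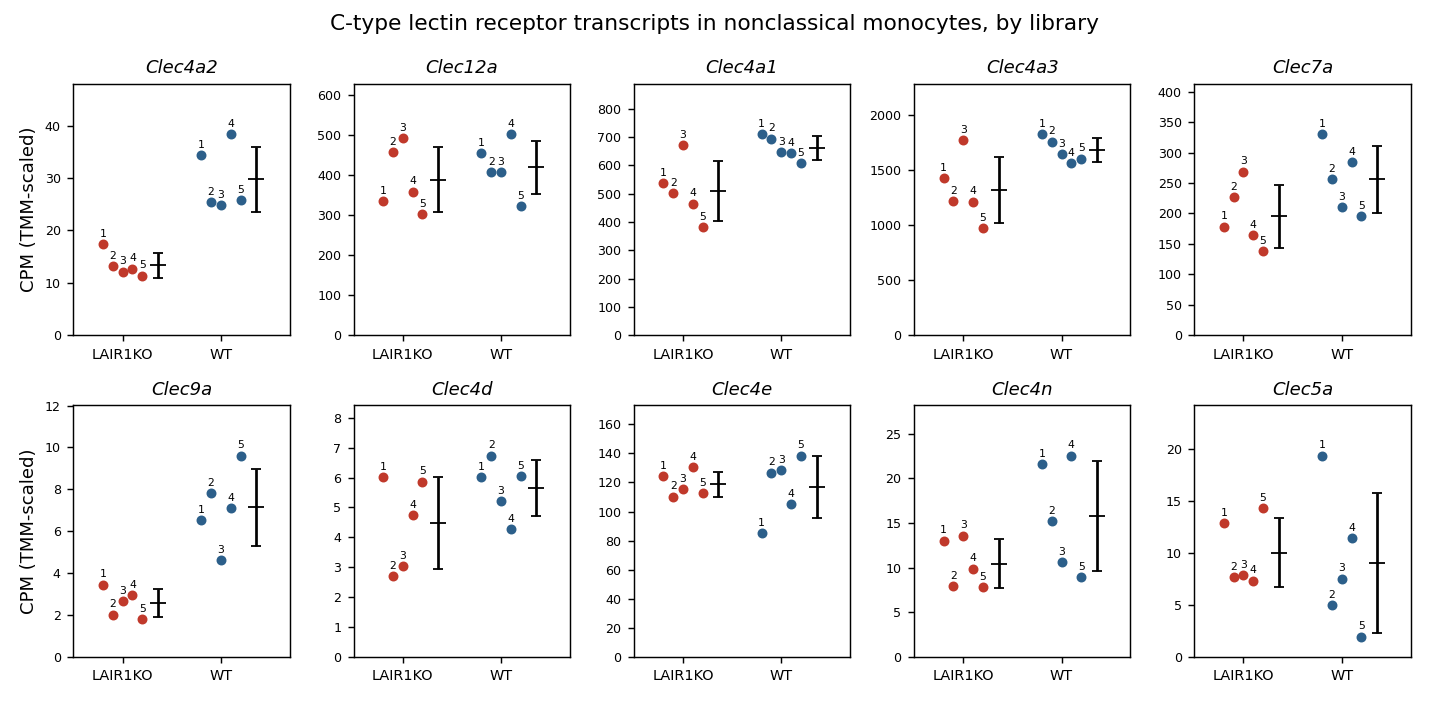
CPM of each of the 10 C-type lectin receptor genes in every library (numbered points), with LAIR1KO in red left of WT in blue and the mean ± SD in black (n = 5 each); each panel has its own linear axis from 0. Clec4a2 and Clec9a are the panels in which every LAIR1KO point lies below every WT point.

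Clec4a2 encodes DCIR, a receptor with an ITIM that restrains dendritic cells and other myeloid cells. Its transcript stood at 17.4, 13.1, 12.1, 12.7 and 11.4 CPM in LAIR1KO replicates 1 to 5, and at 34.4, 25.4, 24.8, 38.4 and 25.8 CPM in WT replicates 1 to 5. Every LAIR1KO library lay below every WT library, and LAIR1KO replicate 1 stood apart above the other 4 of its group. The mean was 13.4 ± 2.38 CPM in LAIR1KO and 29.8 ± 6.23 CPM in WT (SD, n = 5), a log2 fold change of -1.16 ± 0.17 (SE; edgeR adjusted p = 0.00188), which is 44.9% of the WT level. WT replicates 1 and 4 were the highest, and without both of them the log2 fold change was -0.92 (adjusted p = 0.0205). Of the distinct stretches of 50 bases in its annotated transcripts, 6.69% also occur in transcripts of other genes, among them Clec4a4 and Clec4b1. Some of its reads could therefore have been assigned between these genes. The share counts stretches of sequence and not reads, so the part of its reads concerned is unknown.

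Clec12a encodes MICL, the other ITIM receptor of the set, which binds uric acid crystals and dampens inflammation. It ranged from 301 to 491 CPM in LAIR1KO and from 322 to 502 CPM in WT, and the groups overlapped almost fully. The mean was 388 ± 81.8 CPM in LAIR1KO and 418 ± 66.7 CPM in WT (log2 fold change -0.11 ± 0.15, edgeR adjusted p = 0.730). Within libraries, the log2 ratio of Clec4a2 to Clec12a was -4.84 ± 0.41 in LAIR1KO and -3.81 ± 0.18 in WT, a difference of -1.02, given without a test because the pair was taken up after its values were seen.

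Clec4a1 and Clec4a3 encode DCIR4 and DCIR3, relatives of DCIR that lack its ITIM, and their transcripts were the most abundant of the set. Clec4a3 stood at 1427, 1220, 1773, 1213 and 972 CPM in LAIR1KO replicates 1 to 5, and at 1828, 1759, 1647, 1561 and 1604 CPM in WT replicates 1 to 5. Clec4a1 stood at 536, 501, 671, 465 and 383 CPM in LAIR1KO, and at 711, 694, 647, 644 and 608 CPM in WT, in the same order of replicates. In both genes 4 of the 5 LAIR1KO libraries lay below every WT library, and LAIR1KO replicate 3 lay within the WT values. The log2 fold change was -0.35 ± 0.14 for Clec4a3 (adjusted p = 0.156) and -0.37 ± 0.13 for Clec4a1 (adjusted p = 0.110), so by edgeR neither passed. Without LAIR1KO replicate 3 both passed, with log2 fold changes of -0.48 for Clec4a3 (adjusted p = 0.0171) and -0.49 for Clec4a1 (adjusted p = 0.0128). This gain was not particular to them, as the genes called lower rose from 226 to 381, with Nr4a1 and Adgre4 among them. Clec4a1 also passed in DESeq2 (adjusted p = 0.0457). Without LAIR1KO replicates 4 and 5 the log2 fold changes were smaller, -0.19 for Clec4a3 (adjusted p = 0.432) and -0.22 for Clec4a1 (adjusted p = 0.325).

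The summed level of the 12 nonclassical monocyte markers was 8978 to 14182 CPM in LAIR1KO, lowest in replicate 5 and highest in replicate 3, and 12456 to 13655 CPM in WT. LAIR1KO replicate 5 was the lowest of its group for 7 of the 10 lectin genes, and replicate 3 the highest for 5 of them, Clec4a1, Clec4a3, Clec4n, Clec7a and Clec12a. The 9 progenitor markers summed to 3187 to 6716 CPM in LAIR1KO, lowest in replicate 3 and highest in replicate 5, and 525 to 1397 CPM in WT. The part of these differences in the lectin values was not tested.

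Clec4a1 and Clec4a3 ran in parallel. The level of Clec4a3 divided by that of Clec4a1 was 2.58 ± 0.0919 in LAIR1KO (2.44 to 2.66) and 2.54 ± 0.0773 in WT (2.43 to 2.64; SD, n = 5). After the mean of each gene over the 10 libraries was taken off, their log2 CPM profiles differed by a root mean square of 0.044. Of the 13468 other tested genes, Clec4a1 was the nearest to Clec4a3 by this measure, and Clec4a3 the second nearest to Clec4a1. The next closest pair among the 10, Clec4a1 and Clec7a, differed by 0.19. The 2 genes start 30.7 kb apart, their levels share the scaling of each library, and 0 of the stretches of 50 bases in either one's transcripts occur in another gene. Clec4a2 starts 185 kb from Clec4a1. In LAIR1KO replicate 3 it stood at 12.1 CPM, within the other LAIR1KO values, while Clec4a1 and Clec4a3 stood within the WT values. The log2 ratio of Clec4a2 to Clec4a3 was -6.60 ± 0.33 in LAIR1KO and -5.83 ± 0.31 in WT, a difference of -0.77, again without a test.

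**Figure D2:**
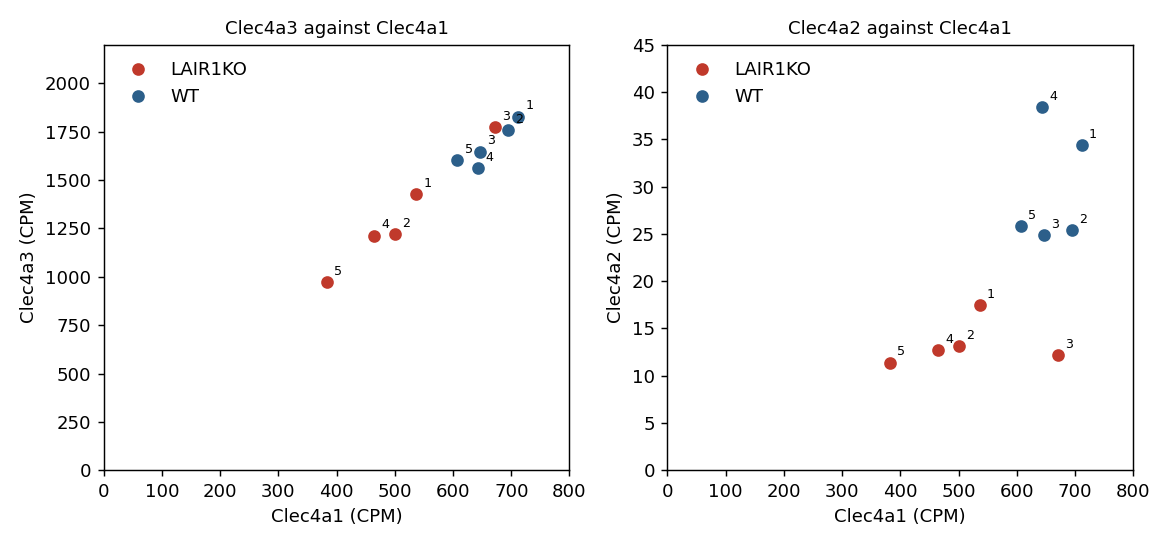
CPM of Clec4a3 (left) and of Clec4a2 (right) against CPM of Clec4a1, 1 point per library labelled with its replicate number, LAIR1KO in red and WT in blue. On the left all 10 libraries lie near 1 line through the origin, with a ratio of 2.43 to 2.66; on the right LAIR1KO replicate 3 has 671 CPM of Clec4a1, within the WT range, and 12.1 CPM of Clec4a2.

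Clec7a encodes Dectin-1, the β-glucan receptor that signals through its own hemITAM. It ranged from 138 to 269 CPM in LAIR1KO and from 196 to 331 CPM in WT, with overlapping groups. The mean was 195 ± 52.2 CPM in LAIR1KO and 256 ± 54.8 CPM in WT (log2 fold change -0.39 ± 0.19, adjusted p = 0.240). GENCODE labels this gene a polymorphic pseudogene on the reference strain.

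Clec9a encodes DNGR-1, a hemITAM receptor for actin filaments exposed by dead cells, best known from type 1 conventional dendritic cells. It stood at 3.45, 2.02, 2.65, 2.96 and 1.81 CPM in LAIR1KO replicates 1 to 5, and at 6.52, 7.83, 4.61, 7.11 and 9.60 CPM in WT replicates 1 to 5. Every LAIR1KO library lay below every WT library. The level was low in all of them, 25 to 54 counts in LAIR1KO and 62 to 124 counts in WT. The mean was 2.58 ± 0.674 CPM in LAIR1KO and 7.13 ± 1.83 CPM in WT, a log2 fold change of -1.46 ± 0.26 (edgeR adjusted p = 0.00494), which is 36.3% of the WT level. Clec1b lies beside it and shares 5.59% of its exon bases on the same strand, with a mean of 17.2 counts per library against 64.7 for Clec9a. These counts were uneven, at 0.433 ± 0.446 CPM of Clec1b in LAIR1KO and 2.11 ± 2.63 CPM in WT. Clec1b was highest in WT replicate 5, at 6.58 CPM, where Clec9a was also highest, and stood at 0 CPM in WT replicate 2. The part of shared reads in the Clec9a values was not tested. The log2 ratio of Clec9a to Clec7a was -6.16 ± 0.49 in LAIR1KO and -5.15 ± 0.51 in WT, a difference of -1.01, given as a description.

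Some markers of dendritic cells were lower in LAIR1KO, as Clec9a was, a comparison of the groups and not of single libraries. Of 8 tested markers of type 1 conventional dendritic cells 3 were lower in LAIR1KO, Batf3, Ifi205 and Cadm1 (the first 2 named after their values were seen), of which Cadm1 had the smallest p (7.11 CPM in LAIR1KO and 22.5 CPM in WT, log2 fold change -1.66 ± 0.21, adjusted p = 6.84e-04), and 0 were higher. The summed level of the 9 markers of this list overlapped between the groups, at 78.1 to 196 CPM in LAIR1KO and 129 to 173 CPM in WT. Most of it came from Wdfy4, at 93.9 CPM in LAIR1KO and 99.1 CPM in WT (adjusted p = 0.911). The chemokine receptor Xcr1, singled out after its values were seen because it defines these cells, averaged 1.17 ± 0.129 CPM in LAIR1KO and 1.83 ± 0.757 CPM in WT (log2 fold change -0.65 ± 0.36, adjusted p = 0.324). No marker of this list was at 0 counts in every library. Of 4 tested markers of plasmacytoid dendritic cells, which also express Clec9a in the mouse, Siglech was lower (6.45 CPM in LAIR1KO and 17.8 CPM in WT, adjusted p = 0.0320), and the most abundant, Runx2, stood at 54.3 CPM in LAIR1KO and 49.1 CPM in WT (adjusted p = 0.598). Siglech missed the threshold in 6 of the 10 leave-one-out fits. The 7 plasmacytoid markers summed to 64.6 to 93.1 CPM in LAIR1KO and 68.2 to 143 CPM in WT. The part of dendritic cells in the Clec9a result was not tested.

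Clec4d, Clec4e and Clec4n encode MCL, Mincle and Dectin-2, which signal through FcRγ. Mincle and MCL recognise the mycobacterial cord factor, and Dectin-2 recognises fungal mannans. Clec4e was the steadiest gene of the set in LAIR1KO, at 110.3 to 131 CPM in LAIR1KO and 85.1 to 138 CPM in WT. Its mean was 119 ± 8.48 CPM in LAIR1KO and 117 ± 21.4 CPM in WT (log2 fold change 0.02 ± 0.13, adjusted p = 0.945), and the sign of this difference changed under 6 of 20 alternatives. Clec4n ranged from 7.82 to 13.6 CPM in LAIR1KO and from 8.99 to 22.6 CPM in WT. Its groups overlapped, with the 2 highest values in WT replicates 1 and 4, as for Clec4a2. The log2 fold change of Clec4n was -0.59 ± 0.27 (adjusted p = 0.224), and without WT replicates 1 and 4 it was -0.15 (adjusted p = 0.817). Clec4d was scarce, with 40 to 94 counts per library and 4.47 ± 1.55 CPM in LAIR1KO against 5.66 ± 0.942 CPM in WT (log2 fold change -0.34 ± 0.26, adjusted p = 0.499).

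Clec5a encodes MDL-1, a receptor for dengue virus that pairs with DAP12. It was the most variable gene of the set between WT libraries, with a coefficient of variation of 74.5%. It ranged from 7.32 to 14.3 CPM in LAIR1KO and from 1.94 to 19.3 CPM in WT, highest in WT replicate 1 and lowest in WT replicate 5. The mean was 9.99 ± 3.31 CPM in LAIR1KO and 9.02 ± 6.72 CPM in WT (log2 fold change 0.15 ± 0.45, adjusted p = 0.894), and without WT replicates 1 and 4 the log2 fold change was 1.05 without passing. WT replicates 1 and 5 also held the highest and the lowest summed level of 12 neutrophil markers, 2447 CPM in replicate 1 and 909 CPM in replicate 5. In LAIR1KO that sum was 1436 to 2037 CPM, lowest in replicate 5, which had the highest Clec5a. Of the 12 neutrophil markers 0 passed in either direction by edgeR, DESeq2 or limma voom. At an unadjusted p under 0.05, a threshold whose share over all genes is not given, 1 was higher by edgeR. By each of the other tools 2 were higher, and 0 were lower by any tool. The most abundant, Csf3r, stood at 399 CPM in LAIR1KO and 414 CPM in WT, and Ly6g, with the smallest p, at 2.54 CPM in LAIR1KO and 0.948 CPM in WT (adjusted p = 0.143). The part of neutrophil RNA in the Clec5a values was not tested.

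**Figure D3:**
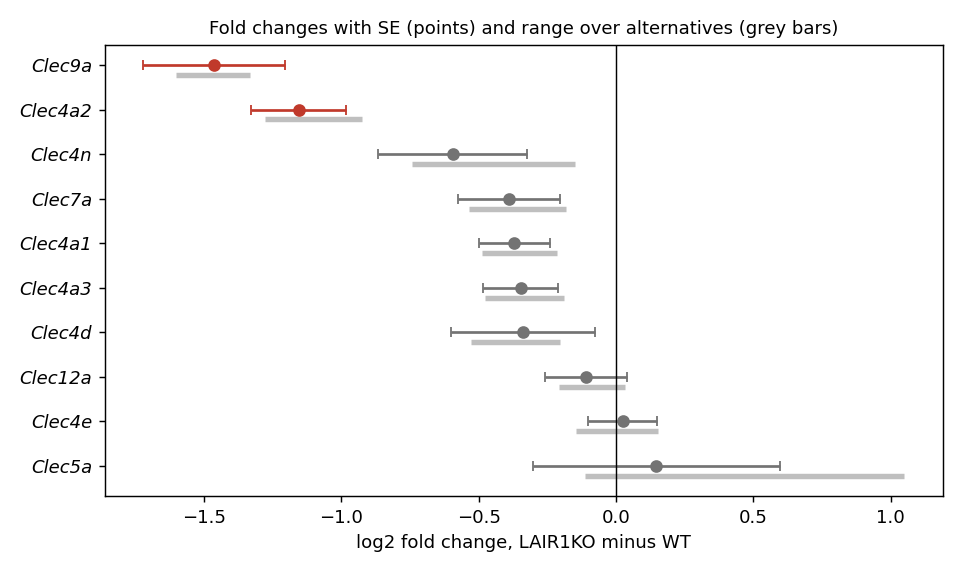
Log2 fold change, LAIR1KO minus WT, of the 10 genes (points ± SE from edgeR, red where the adjusted p was under 0.05), with the range over 20 alternative fits as grey bars below each point. Only the points of Clec9a at -1.46 and Clec4a2 at -1.16 are red, and the grey bars of Clec12a, Clec4e and Clec5a cross 0.

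Clec4a2 and Clec9a were set against the 8 members that did not pass as 16 log2 ratios within each library (edgeR log2 CPM with a prior count of 2). Both sides of each ratio were chosen by whether they passed, so the ratios are a description of sizes and carry no test. For Clec4a2 the difference, LAIR1KO minus WT, was smallest over Clec4n, with 0.37 ± 0.33 in LAIR1KO and 0.98 ± 0.37 in WT (difference -0.61), and over the scarce Clec4d it was -0.76, with 1.60 ± 0.50 in LAIR1KO and 2.36 ± 0.48 in WT. For Clec9a the difference was smallest over Clec4n (-0.88) and largest over Clec5a (-1.87), the gene that varied most in WT.

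Levels of different genes were compared as CPM per kilobase of merged exons, a scale that depends on the annotated exon length, 1.327 kb for Clec4a3 and 5.528 kb for Clec12a. The order of the means was the same in LAIR1KO and in WT. Clec4a3 led with 995 ± 226 in LAIR1KO and 1266 ± 83.5 in WT, followed by Clec4a1 with 328 ± 68.1 in LAIR1KO and 424 ± 26.9 in WT. Then came Clec7a, Clec12a, Clec4e, Clec4n, Clec4a2, Clec4d, Clec5a and Clec9a. In both groups Clec7a and Clec12a overlapped, as did Clec4n and Clec4a2, and Clec4d and Clec5a. Clec5a and Clec9a overlapped in WT and were separate in LAIR1KO, where Clec9a had the lowest level, 0.783 ± 0.205 per kilobase in LAIR1KO and 2.17 ± 0.554 in WT. The other neighbours in the order did not overlap in either group.

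**Figure D4:**
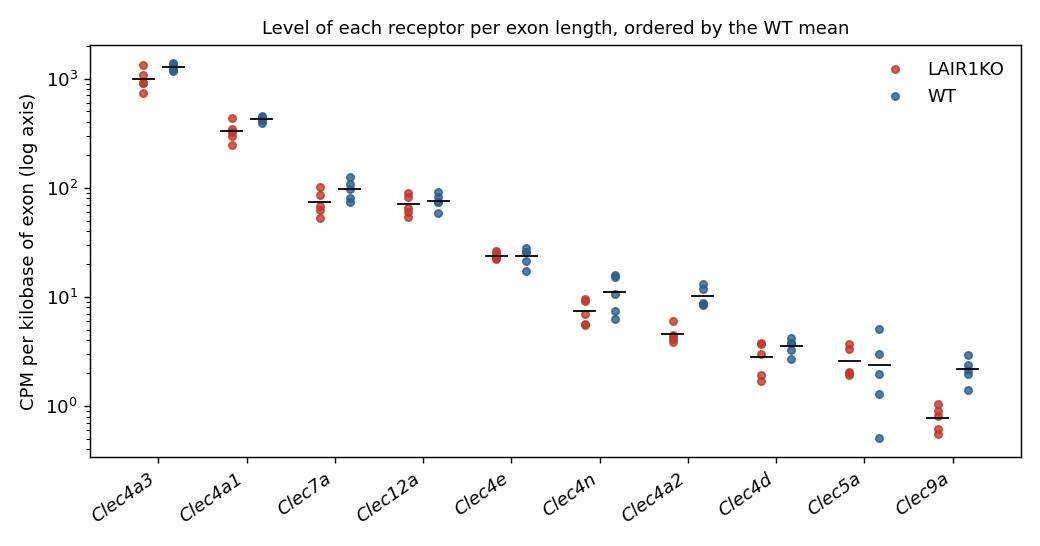
CPM per kilobase of merged exon on a log axis for each gene, ordered by the WT mean, with LAIR1KO libraries in red left of WT libraries in blue and black bars at the means (n = 5 each). The levels span from 995 (LAIR1KO) and 1266 (WT) for Clec4a3 to 0.783 (LAIR1KO) and 2.17 (WT) for Clec9a.

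The genes all lie on chromosome 6 (GENCODE M21, GRCm38) in 3 places. Clec5a stands alone at 40574894 to 40585821 on the minus strand. Clec4a1, Clec4a3, Clec4a2, Clec4n, Clec4d and Clec4e lie in that order within 368 kb, from 122921848 to 123289870, and Clec12a, Clec9a and Clec7a within 130 kb, from 129342691 to 129472779. GENCODE starts Clec4a2 at 123106428 and Clec12a at 129342691, upstream of the RefSeq starts used for the windows above. Between the 6 genes of the larger array 2 other genes were tested. Clec4b1, which encodes DCAR, an FcRγ-coupled receptor for mycobacterial glycolipids, was lower and is the direct neighbour of Clec4a2 among the tested genes. It stood at 29.0, 32.4, 37.1, 28.3 and 24.6 CPM in LAIR1KO replicates 1 to 5, and at 72.8, 51.0, 57.3, 74.3 and 42.9 CPM in WT replicates 1 to 5. Every LAIR1KO library lay below every WT library, and WT replicates 1 and 4 were again the highest (log2 fold change -0.98 ± 0.17, adjusted p = 0.00399). Transcripts of Clec4b1 share stretches of 50 bases with those of Clec4a2, so the counts of the 2 genes may not be fully separate. The DCIR2 gene Clec4a4, on the other side of Clec4b1, averaged 6.08 ± 0.825 CPM in LAIR1KO and 6.59 ± 1.20 CPM in WT (log2 fold change -0.12 ± 0.19, adjusted p = 0.778). In the array of Clec12a, Clec9a and Clec7a 0 other genes were abundant enough to test.

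**Figure D5:**
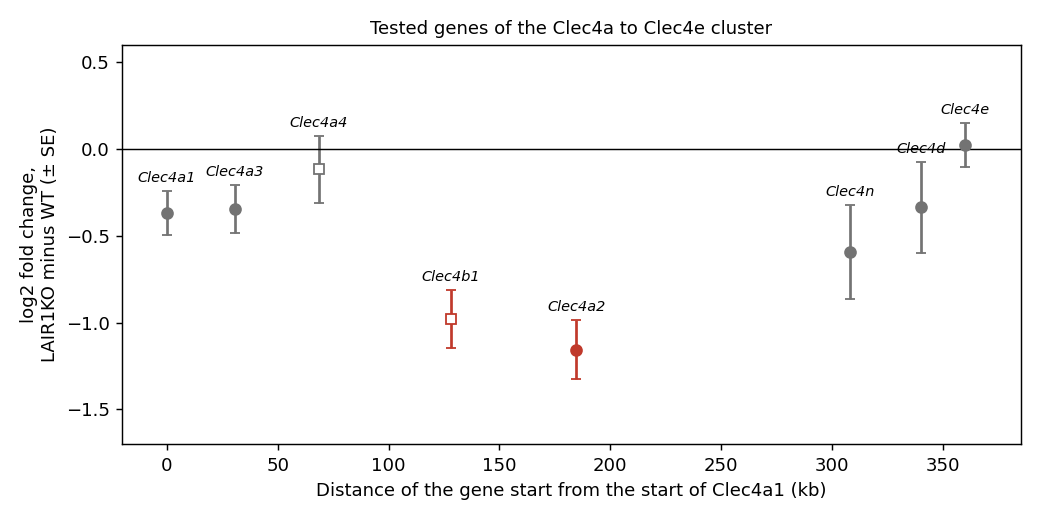
Log2 fold change, LAIR1KO minus WT (± SE), of the 8 tested genes of the larger array against the distance of their starts from the start of Clec4a1 in kb; filled circles are the genes of the set, open squares the other tested genes, and red marks an adjusted p under 0.05. Clec4b1 at -0.98 and Clec4a2 at -1.16 are neighbours, with values of -0.59 to 0.02 on the other genes.

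Signalling genes that these receptors use gave 1 call. Of 26 tested adaptors, kinases and members of the CARD9 complex, Fcer1g, which encodes FcRγ, was lower, at 1974 ± 495 CPM in LAIR1KO and 3002 ± 230 CPM in WT (log2 fold change -0.60 ± 0.15, adjusted p = 0.0298), and 0 were higher. Fcer1g missed the threshold in 7 of the 10 leave-one-out fits. Tyrobp, which encodes DAP12, stood at 1204 CPM in LAIR1KO and 1737 CPM in WT (log2 fold change -0.53 ± 0.16, adjusted p = 0.0640). Tyrobp was lower past the threshold in 3 of 20 alternatives. These were DESeq2 (adjusted p = 0.0141), limma voom (adjusted p = 0.0465) and edgeR without LAIR1KO replicate 3 (adjusted p = 0.0129). The kinase gene Prkcd stood at 1459 CPM in LAIR1KO and 1584 CPM in WT (adjusted p = 0.509). Of 3 phosphatase genes 0 passed, and Ptpn6, which encodes SHP-1, stood at 1544 CPM in LAIR1KO and 1674 CPM in WT (adjusted p = 0.667). Of 13 genes that these receptors can induce, 4 were abundant enough to test and 0 passed, while Il12b, Cxcl1 and Csf2 had 0 counts in every library. Over the 33 tested genes of these lists the fold change was below 0 for 28, with a median of -0.16. At an unadjusted p under 0.05, 11 of them were lower and 0 higher by edgeR, and the share of all genes under that threshold is not given. At the adjusted threshold DESeq2 called 7 of them lower, with 513 of all 13469 genes lower, and limma voom 2, with 226 lower.

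Other C-type lectin genes moved in both directions. Of 24 tested, 3 were lower and 3 higher in LAIR1KO, with a median log2 fold change of -0.42. Lower beside Clec4b1 were the mannose receptor gene Mrc1 (13.9 CPM in LAIR1KO and 36.3 CPM in WT, log2 fold change -1.39, adjusted p = 0.00825) and Cd72, an ITIM receptor of B cells (-0.98, adjusted p = 0.0252). Exons of Cd72 overlap an antisense gene over 41.6% of their length, and in 4 of the 10 leave-one-out fits Cd72 missed the threshold. Among the higher were the activation antigen gene Cd69 (14.6 CPM in LAIR1KO and 5.90 CPM in WT, 1.31, adjusted p = 0.00833) and Clec11a, which encodes a secreted growth factor (3.12 CPM in LAIR1KO and 1.11 CPM in WT, 1.47, adjusted p = 0.0499). In 9 of the 10 leave-one-out fits Clec11a missed the threshold. The most abundant that did not pass were Clec2i, at 326 CPM in LAIR1KO and 362 CPM in WT, Cd209a, at 65.6 CPM in LAIR1KO and 116 CPM in WT, and Cd302, at 77.4 CPM in LAIR1KO and 105 CPM in WT. Clec4f, Clec2h, Clec12b and Klrb1 had 0 counts in every library.

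The tested genes whose profile over the 10 libraries lay nearest to that of Clec4a2, by the same root mean square difference of centred log2 CPM, were Adap2 (0.22), Calhm6 (0.23) and Crip1 (0.24), where the median over all genes compared was 0.68. Their log2 fold changes were -1.09, -0.81 and -0.83. Nearest to Clec9a were Ly6a (0.34), Spic (0.35) and Blnk (0.36), with a median over all genes of 0.83, and their log2 fold changes were -1.35, -1.09 and -1.17. Ly6a encodes the stem cell antigen Sca-1 and Blnk an adaptor of SYK in B cells. Spic, a transcription factor of iron-recycling macrophages, is also on the resident macrophage list. The profiles compared include the difference between the groups, so similar fold changes follow from the choice and are not a further result. Predicted genes and the 10 members were left out of these comparisons.

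Macrophage and other dendritic cell markers were set beside Clec4a2, which those cells also express. Summed over 11 resident macrophage markers, the groups did not overlap, at 870 to 1091 CPM in LAIR1KO and 1586 to 2135 CPM in WT. The most abundant gene of that list, Adgre1, stood at 716 CPM in LAIR1KO and 912 CPM in WT (adjusted p = 0.0947). Adgre1 was lower past the threshold in 2 of 20 alternatives. These were DESeq2 (adjusted p = 0.0341) and edgeR without LAIR1KO replicate 3 (adjusted p = 0.0135). C1qa stood at 22.9 CPM in LAIR1KO and 115 CPM in WT. Markers of type 2 conventional dendritic cells, 6 in all, summed to 70.4 to 183 CPM in LAIR1KO and 121 to 365 CPM in WT, highest in WT replicates 4 and 1. Of 5 tested, 0 passed by edgeR and by limma voom, and 1 was lower by DESeq2. At an unadjusted p under 0.05, 4 were lower by edgeR, 2 by DESeq2 and 3 by limma voom (share of all genes not given). Of these, Clec10a had the smallest p (20.7 CPM in LAIR1KO and 41.3 CPM in WT, adjusted p = 0.0745). Of 7 tested classical monocyte markers 2 were higher by edgeR, among them F13a1 (362 CPM in LAIR1KO and 84.6 CPM in WT). The most abundant, Ccr2, stood at 423 CPM in LAIR1KO and 648 CPM in WT (adjusted p = 0.0588). Ccr2 was lower past the threshold in 4 of 20 alternatives, among them DESeq2 (adjusted p = 0.0130). The summed level of the 8 classical monocyte markers overlapped, at 1156 to 1483 CPM in LAIR1KO and 898 to 1494 CPM in WT. The part of these cells in the Clec4a2 result was not tested.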

How the data were processed

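RNA from sorted cells was sequenced after a low-input preparation, per the labels' protocols. The submitters' processing notes name GSNAP, a read aligner, and the build GRCm38.p5; version, counting tool, annotation and strand setting are not stated there. The authors deposited raw, unnormalized counts per Ensembl gene, and columns were tied to libraries through the identifiers in their titles. GENCODE M21 on GRCm38 named 52489 of 52636 identifiers. In R 4.3.3, edgeR 4.0.16 kept genes by filterByExpr (minimum count 10, minimum total 15), scaled by TMM and compared LAIR1KO with WT by the two-sided quasi-likelihood test without covariates, with Benjamini-Hochberg adjustment over 13469 genes. Each SE is the log2 fold change divided by the root of its F value. Adjusted p-values of single genes are edgeR's unless another tool is named. No library was a copy of another: replicates differed by a chi-square per degree of freedom of at least 15.5. Alternatives used RLE, upper-quartile and library-total scaling, other filters, a replicate block, left-out libraries, DESeq2 1.42.0 and limma 3.58.1. The test was checked on simulated data. The members, gene lists and left-out pairs of libraries were chosen with earlier results of these data known. Named from the lists were genes past the threshold (of marker lists, the most abundant and the one with the smallest p), the 3 most abundant others, and genes at 0 counts throughout. 1 gene that these rules select is not reported here.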

Additional observations from a re-analysis of the deposited data

Results flagged for a closer look

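In 88 groups of 5 libraries (44 named genes, both genotypes), 4 held a library far from the other 4 by Dixon's ratio at its 95% critical value of 0.71; chance alone flags about 1 group in 20. Clec4a2 was highest in LAIR1KO replicate 1, at 17.4 CPM, against 11.4 to 13.1 CPM in the other LAIR1KO libraries, and this library still lay below every WT library. Cadm1 was highest in WT replicate 3, at 35.6 CPM, against 17.6 to 21.5 CPM in the other WT libraries. Mpo was highest in WT replicate 2, at 915 CPM, against 336 to 502 CPM. Cd302 was lowest in WT replicate 1, at 85.2 CPM, against 106 to 113 CPM.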

How the results depend on the processing

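Clec4a2 and Clec9a kept their direction and their call in all 20 alternatives, with log2 fold changes of -1.28 to -0.92 and adjusted p-values up to 0.0205 for Clec4a2, and of -1.60 to -1.33 and up to 0.0374 for Clec9a; Clec4b1 did so as well (-1.08 to -0.74). With 1 library left out, the number of called members was 2 to 4, the 4 being without LAIR1KO replicate 3, and the log2 fold change was -0.49 to -0.29 for Clec4a1, -0.48 to -0.26 for Clec4a3, -0.072 to 0.091 for Clec4e, -0.11 to 0.62 for Clec5a, -0.48 to -0.21 for Clec4d, -0.21 to -0.036 for Clec12a, -0.39 to 0.077 for Wdfy4 and -0.15 to 0.022 for Csf3r. DESeq2 called Clec4a1 (-0.38). The sign turned without LAIR1KO replicates 4 and 5 for Clec4e (-0.0014), Clec12a (0.028), Ptpn6 (0.034) and Clec2i (0.12), without WT replicates 1 and 4 for Clec4e (-0.15) and Clec12a (0.035), and with library totals for Clec12a (0.017), Ptpn6 (0.0088), Prkcd (0.0063), Wdfy4 (0.070) and Csf3r (0.081); none of these passed in any of those fits. Called genes numbered 914 (75.3% higher) and 535 to 1170 with 1 library left out, 376 without LAIR1KO replicates 4 and 5, 338 without WT replicates 1 and 4, 1379 with library totals (90.1% higher; median of all genes moved to 0.13), 1523 with DESeq2 and 1474 at an adjusted p under 0.1. Called signalling genes numbered 0 to 3 with 1 library left out, 2 with RLE, upper-quartile scaling or limma voom, 0 without LAIR1KO replicates 4 and 5, and 7 with DESeq2 or at an adjusted p under 0.1. Other lectin genes gave 2 calls without either pair of libraries. The cause was not tested. Same-numbered libraries deviated together by correlations of -0.0775 to 0.0466, so no strong shared shift was seen. The labels used here give no pairing or batch, and a weaker link between these libraries is unknown. With a replicate block 600 genes, 2 members and 2 signalling genes were called. Low counts, 25 to 124 per library for Clec9a and 40 to 94 for Clec4d, limit the precision for these genes.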
